A study of Homo sapiens with 12 samples.

Results

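The translation initiation factors and the eIF4E-binding proteins (4E-BPs) are the genes whose products bring the small ribosomal subunit, the initiator tRNA and the mRNA together. They were taken from the table of read counts by their symbol: 65 of its 44659 rows have a name that begins with EIF and a digit from 1 to 6, and 54 remained after leaving out 5 rows of the eIF2 kinases (EIF2AK), 2 antisense rows, 2 pseudogenes and 2 rows that are copies of another row. Of the 54 members, 52 are protein-coding and 2 are divergent non-coding transcripts (EIF2B5-DT and EIF3J-DT). RNA-seq was performed on A375 cells, an established human melanoma cell line with a BRAF mutation that activates the MAPK pathway, in 2 experiments with 3 libraries per group. In the first, cells were cultured for 24 h in medium with glutamine (2 mM) and either 500 nM vemurafenib, an inhibitor of BRAF, together with 500 nM cobimetinib, an inhibitor of MEK (MAPKi), or the solvent DMSO. In the second, cells without inhibitors were cultured for 24 h in glutamine-free medium (Gln-depleted) or in the same kind of medium with glutamine (CTRL medium). Both experiments used 1 cell line from 1 supplier. The labels describe the RNA as cytoplasmic, whereas the RNA-seq methods of the paper describe total RNA, so the fraction is not settled here. Nothing in the labels says that the libraries of a group came from separate cultures, so p-values measure the spread between these libraries.

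Translation of most mRNAs begins when eIF4F binds the cap. eIF4E holds the cap, eIF4G is the scaffold and eIF4A is the RNA helicase, while hypophosphorylated 4E-BPs occupy the site of eIF4E that eIF4G needs. eIF2 carries the initiator tRNA to the small subunit as the ternary complex, eIF1 and eIF1A keep the scanning subunit open, eIF3 is the large scaffold on the subunit, eIF5 and eIF5B act at start codon selection and subunit joining, and eIF2B reloads eIF2 with GTP. Kinases of eIF2 convert it into an inhibitor of eIF2B during amino acid shortage, and mTOR and MAPK signalling act on 4E-BPs and eIF4E by phosphorylation. The libraries measure none of these phosphorylations, only the RNA of the genes.

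Between 31056296 and 40071368 reads were counted per library, and values below are normalized counts, which are reads scaled to the same effective library size within an experiment. Fold changes are given as log2 fold change ± SE of treated over control cells from edgeR's quasi-likelihood test, with p-values adjusted by Benjamini-Hochberg over all rows tested. MAPK target genes served as a check of the inhibitors. DUSP6, an ERK phosphatase, had 4594, 4608 and 4318 normalized counts with DMSO and 2.02, 8.84 and 7.11 with MAPKi, and SPRY4, ETV4, ETV5 and CCND1 were lower as well. TRIB3, a target of the amino acid response, had 2535, 2620 and 1919 normalized counts in CTRL medium and 23504, 21031 and 20165 after Gln depletion. CHAC1, DDIT3 and ASNS were also higher, whereas SESN2 had almost no reads. Of 11 melanocyte lineage markers, 9 were detected (mean of at least 10 normalized counts) with DMSO and 10 in CTRL medium, whereas none of 3 keratinocyte markers (KRT5 and KRT1 were at 0 in all libraries) and none of 2 endothelial markers reached that level in any group. Of 4 fibroblast markers, which melanoma cells can express too, 3 were detected in each group, with DCN at or near 0, and of 3 leukocyte markers at most 1, with CD3E at 0 in all libraries. The fibroblast markers summed to 724 to 930 normalized counts with DMSO, 840 to 934 with MAPKi, 564 to 896 in CTRL medium and 358 to 423 after Gln depletion. The melanocyte markers went both ways with MAPKi, 6 of the 9 tested being higher and 2 lower. DCT rose from between 5682 and 8412 to between 241759 and 324892 normalized counts. The other 10 together had 106618 to 108200 with DMSO and 73836 to 77967 with MAPKi. With DMSO much of that sum was CSPG4, which fell from a mean of 59031 to 5493 with MAPKi, and S100B fell as well. SOX10, MITF, PMEL, MLANA and TYR rose with MAPKi. Of the 8 markers tested after Gln depletion, 1 was lower and 0 were higher. This was MITF, with a mean of 10707 normalized counts in CTRL medium and 2133 after Gln depletion (log2 fold change -2.33 ± 0.30, adjusted p = 0.00377). Fewer reads of a gene in a bulk library cannot be told apart from fewer cells that express it. The nuclear RNA RN7SK took 1.93 to 2.15% of the reads with DMSO and 3.95 to 4.40% with MAPKi. It took 1.55 to 2.25% in CTRL medium and 1.99 to 3.79% after Gln depletion. The nuclear RNA MALAT1 took 0.225 to 0.244% with DMSO and 0.207 to 0.239% with MAPKi. NEAT1, another, took 0.035 to 0.043% and 0.037 to 0.043%. After Gln depletion NEAT1 was lower (0.016 to 0.023% in CTRL medium, 0.006 to 0.008% after depletion). MALAT1 overlapped there (0.078 to 0.273% and 0.094 to 0.146%). The part of these marker and nuclear RNA differences in the results was not tested. In the Gln depletion experiment, replicate 1 of both groups belongs to experimental batch 1 and stood apart from replicates 2 and 3, which are of experimental batch 2. The libraries of a group differed more there (36.2 to 174 times the sampling noise, as chi-square per degree of freedom) than in the MAPKi experiment (4.47 to 14.4 times). Replicates with the same number deviated together, so values of a paired test, with the replicate number as a block, stand beside the Gln depletion results where they change a call.

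Of the 54 members, 48 had a mean of at least 10 normalized counts and were tested in each experiment. The other 6 were EIF1AY, EIF3K, EIF4A1, EIF4A3, EIF4E1B and EIF4EBP3. EIF4A1 and EIF4A3, a helicase of eIF4F and a related helicase of the exon junction, are used by every cell, yet no read was counted on EIF4A1 and at most 1 read per library on EIF4A3, so an absence of expression cannot be read from these rows. A read-through gene (SENP3-EIF4A1) shares exons with EIF4A1, and another (ANKHD1-EIF4EBP3) shares exons with EIF4EBP3, on which 0 to 7 reads were counted. EIF3K held 0 to 4 reads, with 29 to 4254 reads on a copy row of the same name. EIF5A held only 6 to 60 reads, with 253 to 4151 on its copy row, and its values below are uncertain. EIF3C and EIF3CL, EIF2S3 and EIF2S3B, and EIF5A and EIF5AL1 are near-identical pairs between which reads can be split. On the scale of normalized counts per kilobase of transcript, the members detected with DMSO extended from 1.37 (EIF4E3) to 14898 (EIF3I, a subunit of eIF3). EIF4B and EIF4H, which stimulate the helicase, were at 7477 and 7151 per kilobase, EIF4G2 was at 7458 and EIF4EBP1 at 6769. EIF4E was at 1119 per kilobase, and the catalytic subunit of eIF2B, EIF2B5, at 957.

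MAPKi lowered most initiation factor mRNAs. Of the 48 members tested, 34 were lower and 3 were higher after MAPKi, whereas 11 did not pass the test (adjusted p of at most 0.05). Over all 15975 rows tested, 35.9% were lower and 35.8% were higher. The median log2 fold change was -0.36 for the members and -0.00125 for all rows. In a test against a change of 1.5-fold, 14 members were lower and 2 were higher, beside 17.6% and 16.1% of all rows. Together, the 54 members took 0.948 to 0.978% of the reads in the DMSO libraries and 0.724 to 0.787% in the MAPKi libraries, without overlap. Within a group the spread was small, with a median coefficient of variation over the members of 3.71% with DMSO and 4.42% with MAPKi (6.52% and 6.63% over all rows). A fit that took its spread from all 12 libraries called fewer members, 20 lower and 2 higher, and the members it did not call included EIF4G1, EIF4A2, EIF2B5, EIF2B4 and EIF5A2. The plot of log2 fold changes by complex gives each tested member in both experiments.

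**Figure D1:**
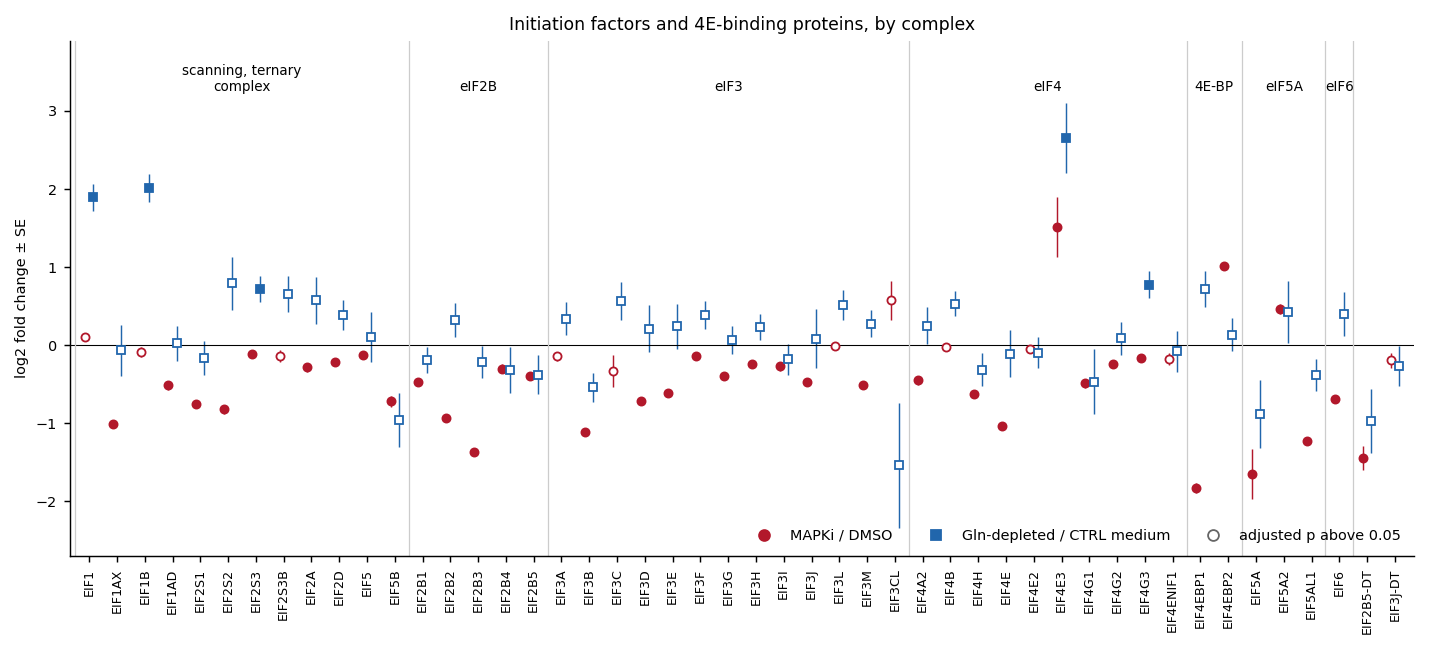
Log2 fold change ± SE (vertical axis) of each of the 48 tested members (horizontal axis, grouped by complex), for MAPKi against DMSO (circles) and Gln-depleted against CTRL medium (squares), 3 libraries per group; filled symbols have an adjusted p of at most 0.05. Filled circles lie below 0 for 34 members and above 0 for 3, and filled squares lie above 0 for 5 members and below 0 for none.

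The RNAs of the 4E-BPs, which restrain eIF4E, moved in opposite directions. EIF4EBP1, which encodes 4E-BP1, had 5450, 6045 and 5300 normalized counts in DMSO replicates 1 to 3 and 1564, 1514 and 1661 in MAPKi replicates 1 to 3. This was a fall of 3.54-fold (log2 fold change -1.82 ± 0.06, adjusted p = 4.78e-08), the largest among the members. EIF4EBP2, which encodes the related 4E-BP2, had 4375, 4376 and 4258 normalized counts with DMSO and 8691, 8551 and 8928 with MAPKi. All MAPKi libraries were above all DMSO libraries, a rise of 2.01-fold (log2 fold change 1.01 ± 0.04, adjusted p = 9.12e-08). Their common target EIF4E had 2708, 2784 and 2658 normalized counts with DMSO and 1264, 1344 and 1372 with MAPKi, also without overlap (log2 fold change -1.03 ± 0.05, adjusted p = 1.71e-07). Per kilobase of transcript, EIF4EBP1 was 11.7 ± 0.714 times as abundant as EIF4EBP2 with DMSO and 1.64 ± 0.0417 times with MAPKi (SD, n = 3), a ratio examined after the values were seen. The ratio of the sum of the 3 4E-BP rows to EIF4E, per kilobase, was 6.44, 6.88 and 6.37 in the DMSO libraries and 5.87, 5.38 and 5.67 in the MAPKi libraries. The groups did not overlap, with a difference of -0.22 in log2 (two-sided exact permutation test, p = 0.1, adjusted p = 0.2 over 4 tests, where 0.1 is the smallest p that 3 against 3 allows). From raw counts without length the difference was 1.09, since the transcript of EIF4EBP2 (7491 bases) is longer than that of EIF4EBP1 (827 bases) and weighs more there.

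**Figure D2:**
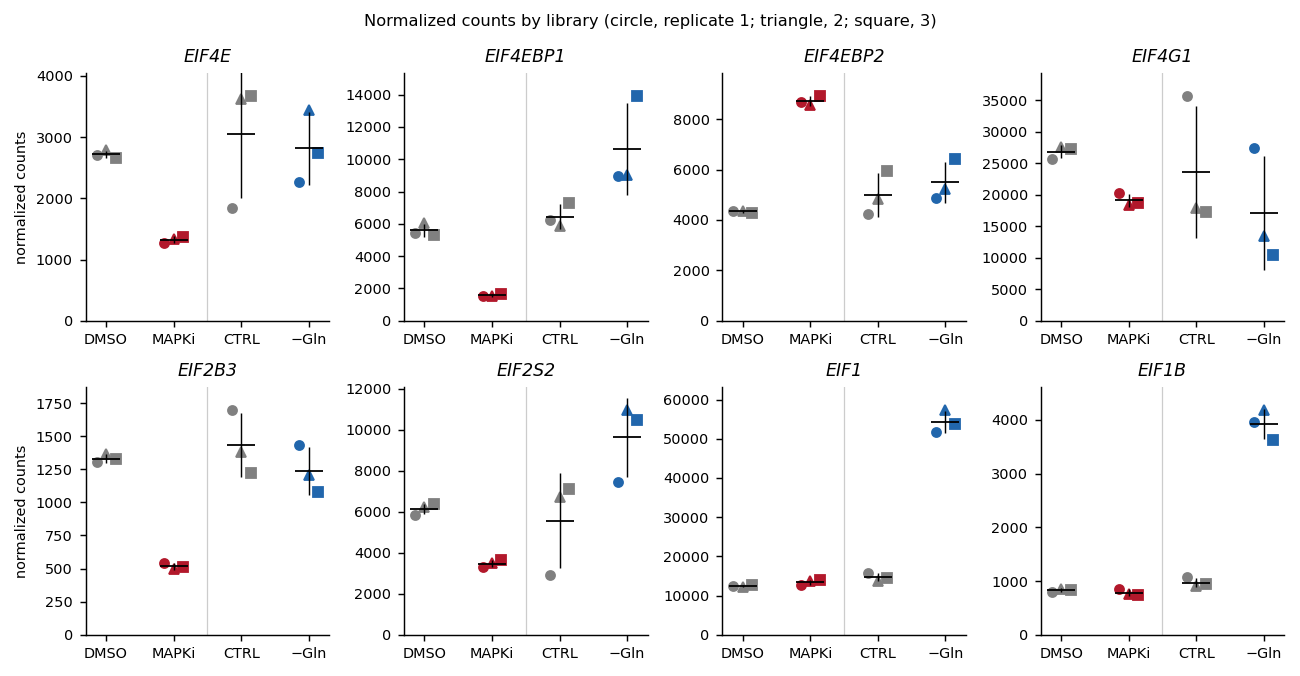
Normalized counts (vertical axis, from 0) of 8 members in each library of the 4 groups (horizontal axis), with the mean (line) and SD (bar) of 3 libraries. EIF4E and EIF4EBP1 are lower and EIF4EBP2 is higher in the MAPKi libraries without overlap with DMSO, and EIF1 and EIF1B are higher in the Gln-depleted libraries without overlap with CTRL medium.

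The promoters of EIF4E and EIF4EBP2, which moved in opposite directions, and of EIF1 and EIF1B, whose RNA rose with Gln depletion, are shown as the 250 bases before the RefSeq start (GRCh38.p14, strand of the gene). Capitals mark CACGTG, the E-box bound by MYC and its relatives, and CCGGAA or its reverse complement TTCCGG, a core of ETS factor sites. EIF4E lies on the minus strand and the other genes on the plus strand.
EIF4E (chr4:98929134-98929383): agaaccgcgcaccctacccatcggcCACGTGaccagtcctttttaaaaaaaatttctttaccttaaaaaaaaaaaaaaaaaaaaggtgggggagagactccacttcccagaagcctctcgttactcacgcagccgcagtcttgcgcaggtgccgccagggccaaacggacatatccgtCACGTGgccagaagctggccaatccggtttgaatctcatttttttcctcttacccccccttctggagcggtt
EIF4EBP2 (chr10:70403895-70404144): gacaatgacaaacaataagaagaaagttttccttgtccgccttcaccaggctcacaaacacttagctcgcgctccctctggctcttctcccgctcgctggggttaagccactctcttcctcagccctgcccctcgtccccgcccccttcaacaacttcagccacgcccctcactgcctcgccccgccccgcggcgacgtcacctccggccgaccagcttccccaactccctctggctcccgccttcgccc
EIF1 (chr17:41688635-41688884): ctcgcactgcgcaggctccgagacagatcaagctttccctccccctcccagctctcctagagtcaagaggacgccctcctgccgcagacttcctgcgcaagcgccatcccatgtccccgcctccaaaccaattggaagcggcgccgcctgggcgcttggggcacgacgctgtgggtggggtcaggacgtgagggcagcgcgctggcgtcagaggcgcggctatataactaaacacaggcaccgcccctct
EIF1B (chr3:40309457-40309706): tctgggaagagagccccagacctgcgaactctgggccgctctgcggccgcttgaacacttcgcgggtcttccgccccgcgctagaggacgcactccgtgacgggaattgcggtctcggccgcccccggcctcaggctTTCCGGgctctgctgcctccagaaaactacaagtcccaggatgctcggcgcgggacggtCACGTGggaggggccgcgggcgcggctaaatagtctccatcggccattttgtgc
The EIF4E window held CACGTG 225 and 72 bases before the start, and the EIF1B window held CACGTG 54 bases and CCGGAA 113 bases before it. Neither motif was present in the windows of EIF4EBP2 and EIF1. Among members not shown, EIF5A2, which rose with MAPKi, held the E-box 187 and 162 bases before the start. It held the ETS core 209 and 80 bases before the start. EIF4B, which MAPKi did not change by the test, held the E-box 22 bases before. Of the members that fell with MAPKi, EIF2B3, EIF3F, EIF4G1 and EIF4H held the E-box as well. The ETS core was held by EIF1AD, EIF2A, EIF2B1, EIF3D, EIF3F, EIF3I, EIF3M, EIF4A2 and EIF6, which also fell. EIF3B, EIF1AX, EIF2B2 and EIF2S1, among others that fell with MAPKi, held neither motif. Whether the motifs go with the direction of change was not tested. Of the 54 members, 46 matched the RefSeq table, and EIF4EBP1 was not among them. CACGTG (on either strand, which reads the same) was present in 11 of the 46 (23.9%), beside 6.49% of the 27305 promoters in the table. CCGGAA on either strand was present in 14 members (30.4%), beside 14.8% of all promoters. TGATGNAA on either strand, the composite element bound by ATF4 and C/EBP proteins, was present in 0 of the 46, beside 3.19% of all promoters. The motifs do not overlap each other. These are matches of letters, and no factor binding was measured.

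Of the other eIF4 members, those that fell did so by less than EIF4E. EIF4G1, the main scaffold, had 25680, 27598 and 27309 normalized counts with DMSO and 20380, 18366 and 18636 with MAPKi (log2 fold change -0.49 ± 0.05, adjusted p = 5.34e-05). EIF4A2, the second eIF4A helicase gene, had 9258, 8865 and 10204 with DMSO and 6833, 6890 and 7001 with MAPKi (log2 fold change -0.45 ± 0.06, adjusted p = 0.000109). In both genes every MAPKi library was below every DMSO library. EIF4H was lower by 1.55-fold (log2 fold change -0.63 ± 0.05), and EIF4G2 and EIF4G3, which encode scaffolds related to eIF4G1, fell by less (log2 fold changes -0.25 and -0.16). EIF4B (log2 fold change -0.02, adjusted p = 0.696) and EIF4E2, a cap-binding protein that represses translation (-0.05, adjusted p = 0.33), did not pass the test, nor did EIF4ENIF1, the nuclear import partner of eIF4E (-0.18, adjusted p = 0.0511). EIF4E3, an atypical cap-binding protein, had only 9.61, 21.9 and 9.64 normalized counts with DMSO and rose to 51.5, 38.7 and 28.4 with MAPKi (log2 fold change 1.51 ± 0.39, adjusted p = 0.00749). In all, 6 of the 10 eIF4 members tested were lower (60%, beside 35.9% of all rows) and 1 was higher (10%, beside 35.8%). Their median log2 fold change was -0.21.

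Each of the 5 subunits of eIF2B was lower after MAPKi (100%, beside 35.9% of all rows). Their log2 fold changes were between -1.37 and -0.30, with a median of -0.47. EIF2B3 fell most: it had 1304, 1365 and 1324 normalized counts with DMSO and 540, 494 and 514 with MAPKi (log2 fold change -1.37 ± 0.05, adjusted p = 7.42e-08). EIF2B2 fell by 1.9-fold (log2 fold change -0.93 ± 0.05). EIF2B5, the catalytic subunit, had 2407, 2486 and 2458 with DMSO and 1860, 1873 and 1856 with MAPKi (log2 fold change -0.40 ± 0.04, adjusted p = 1.46e-05), and EIF2B1 and EIF2B4 fell with log2 fold changes of -0.47 and -0.30. Summed over the complex, 11496 to 11988 normalized counts with DMSO were followed by 7542 to 7837 with MAPKi. EIF2B5-DT, which starts on the opposite strand and overlaps an exon of EIF2B5, had 110, 117 and 102 normalized counts with DMSO and 39.4, 45.3 and 36.4 with MAPKi (log2 fold change -1.44 ± 0.15, adjusted p = 4.16e-05). Whether reads were counted by strand is not given in the sources used here, so reads of the pair cannot be told apart.

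The group of scanning and the ternary complex had 12 tested members, and it was drawn to hold EIF1AD, EIF2A and EIF2D as well. Of these 12, 9 were lower (75%, beside 35.9% of all rows) and 0 were higher by edgeR (beside 35.8%). At an unadjusted p under 0.05 and by DESeq2, 0 were higher as well. The median log2 fold change was -0.25. EIF1AX, which encodes eIF1A, fell by 2.01-fold (log2 fold change -1.01 ± 0.04). The alpha subunit of eIF2, which carries the regulatory phosphorylation site and is encoded by EIF2S1, had 6503, 6722 and 6769 normalized counts with DMSO and 3836, 3769 and 4225 with MAPKi (log2 fold change -0.76 ± 0.05, adjusted p = 2.59e-06). EIF2S2, the beta subunit, had 5843, 6211 and 6353 with DMSO and 3298, 3479 and 3622 with MAPKi (log2 fold change -0.82 ± 0.05, adjusted p = 1.43e-06). The MAPKi libraries lay below all DMSO libraries in both genes. EIF2S3, the gamma subunit, had a smaller log2 fold change (-0.12 ± 0.04, adjusted p = 0.0418), with 14456, 14753 and 14954 normalized counts with DMSO and 13009, 13649 and 14068 with MAPKi. EIF5B, the GTPase of subunit joining, had a log2 fold change of -0.72 ± 0.07, and EIF5, which activates the GTPase of eIF2, one of -0.12. The calls of EIF2S3 and EIF5 were close to the threshold, EIF2S3 being lost without any 1 library other than MAPKi replicate 3 and EIF5 without any 1 other than DMSO replicate 3. EIF1AD, EIF2A and EIF2D were also lower, with log2 fold changes of -0.51, -0.28 and -0.21. EIF1 (log2 fold change 0.11 ± 0.05, adjusted p = 0.0759) and EIF1B (-0.09 ± 0.07, adjusted p = 0.263), which keep the scanning subunit open, did not pass the test, nor did EIF2S3B (-0.13, adjusted p = 0.158).

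Of the 13 tested eIF3 rows, 9 were lower (69.2%, beside 35.9% of all rows) and 0 were higher by edgeR (beside 35.8%). Beyond 1.5-fold 2 of them were lower, beside 17.6% of all rows. At an unadjusted p under 0.05 and by DESeq2, 1 was higher in each. The median log2 fold change was -0.33. EIF3B, a core scaffold subunit, had 13125, 13897 and 12794 normalized counts with DMSO and 6018, 6106 and 6306 with MAPKi (log2 fold change -1.11 ± 0.05, adjusted p = 1.4e-07). EIF3D, a subunit that can itself contact the cap, and EIF3E followed with log2 fold changes of -0.71 and -0.62. EIF3A, the largest subunit, had 11191, 12076 and 13072 normalized counts with DMSO and 11026, 10970 and 10994 with MAPKi, with every MAPKi library below the lowest DMSO library by a small margin (log2 fold change -0.14 ± 0.06, adjusted p = 0.0589). EIF3M, EIF3J, EIF3G, EIF3I, EIF3H and EIF3F were lower with log2 fold changes from -0.51 to -0.14, the last not called without MAPKi replicate 2. EIF3L had a log2 fold change of -0.01 ± 0.04 (adjusted p = 0.87), and the non-coding EIF3J-DT one of -0.20 ± 0.10 (adjusted p = 0.0968). The subunits of the complex therefore covered a range of log2 fold changes from -1.11 to -0.01, leaving aside the near-identical pair EIF3C (-0.33) and EIF3CL (0.57), which did not pass the test and had opposite signs. Summed over its rows, eIF3 had 108145 to 114813 normalized counts with DMSO and 83003 to 88162 with MAPKi.

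eIF5A, a hypusinated protein that relieves stalled ribosomes, is encoded by EIF5A and EIF5A2. EIF5A2 had 892, 909 and 809 normalized counts with DMSO and 1124, 1211 and 1253 with MAPKi and was higher in all 3 libraries (log2 fold change 0.46 ± 0.06, adjusted p = 0.000196). On the EIF5A row, 23.5, 20.9 and 22.2 normalized counts with DMSO were followed by 9.09, 6.63 and 5.33 with MAPKi (log2 fold change -1.65 ± 0.32, adjusted p = 0.00169). The related row EIF5AL1 fell from 1141, 1155 and 1209 to 517, 484 and 495 (log2 fold change -1.23 ± 0.05, adjusted p = 1.36e-07). Reads of the main gene can fall on any of these rows, and the copy row of EIF5A had 655, 696 and 704 normalized counts with DMSO and 332, 280 and 296 with MAPKi. The ratio of EIF5A2 to the EIF5A row, per kilobase, was 8.98 ± 0.849 with DMSO and 41.2 ± 12.7 with MAPKi (SD, n = 3), a difference of 2.15 in log2 (exact permutation test, p = 0.1, adjusted p = 0.2), and it rests on the few reads of that row. EIF6, which keeps the large subunit from joining too early, had 4118, 4296 and 3913 normalized counts with DMSO and 2597, 2397 and 2640 with MAPKi (log2 fold change -0.69 ± 0.05, adjusted p = 5.38e-06).

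Gln depletion gave a different picture, with few members called by the unpaired test and a share called higher near that of all rows. By this test 5 of 48 members (10.4%) were higher and 0 were lower (3 lower at an unadjusted p under 0.05, and 2 by DESeq2). Over all 15900 rows tested, 8.84% were higher and 6.96% were lower. Beyond 1.5-fold, 3 members were higher and 0 lower, beside 3.21% and 1.65% of all rows. In the paired test 15 members (31.25%) were higher and 6 (12.5%) were lower, beside 22.7% and 19.8% of all rows. With the libraries of experimental batch 2 alone, a setting chosen after seeing the data, 10 were higher and 2 were lower. The median log2 fold change was 0.12 for the members and 0.02 for all rows. Scaling by library totals alone shifted the median of all rows to -0.16 and that of the members to -0.05, so that the members lay 0.11 above all rows under either scaling, and 0.0496 above them with a GC-content correction, 0.055 with that correction and the replicate block, and 0.0336 without CTRL medium replicate 1. The members took 0.960 to 0.986% of the reads in CTRL medium and 1.06 to 1.07% in the Gln-depleted libraries, without overlap, but EIF1 alone took 0.0406 to 0.0451% and 0.132 to 0.147%, and without it the groups overlapped (0.914 to 0.946% and 0.919 to 0.926%). Within each group the members varied by a median coefficient of variation of 18.4% in CTRL medium and 16.5% after Gln depletion, several times that of the MAPKi experiment.

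The largest rises of well-expressed members were those of EIF1 and EIF1B, which encode 2 closely related proteins of start codon selection. EIF1 had 15777, 13679 and 14500 normalized counts in CTRL medium replicates 1 to 3 and 51823, 57421 and 53893 in Gln-depleted replicates 1 to 3, a rise of 3.71-fold (log2 fold change 1.89 ± 0.17, adjusted p = 0.00143). Pairs of the same replicate number gave log2 ratios of 1.72, 2.07 and 1.89. EIF1B had 1072, 906 and 939 normalized counts in CTRL medium and 3955, 4188 and 3631 after Gln depletion, a rise of 4.04-fold (log2 fold change 2.01 ± 0.18, adjusted p = 0.0016). Every Gln-depleted library lay above every CTRL medium library in both genes, and the libraries of both experimental batches gave the rise. EIF1 lies on chromosome 17 (41688885 to 41692668, GRCh38) and EIF1B on chromosome 3 (40309707 to 40312424), and a second annotated gene shares exons with EIF1B on the same strand. EIF4E3 had 11.8, 14.3 and 16.1 normalized counts in CTRL medium and 130, 87 and 50.1 after Gln depletion (log2 fold change 2.65 ± 0.44, adjusted p = 0.00913), from few reads.

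**Figure D3:**
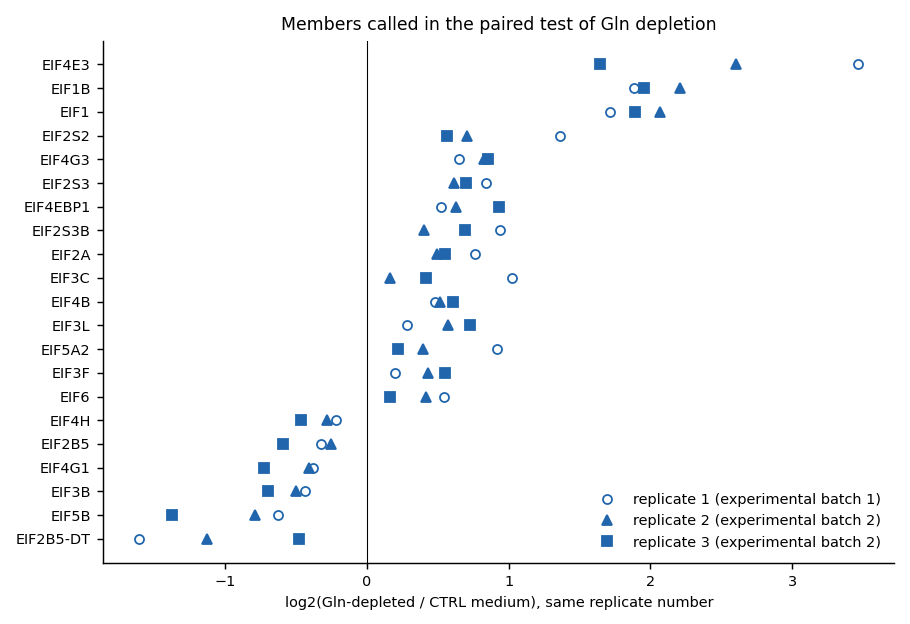
Log2 ratio of Gln-depleted to CTRL medium normalized counts (horizontal axis) for each pair of libraries with the same replicate number, for the 21 members called in the paired test (vertical axis); open circles are experimental batch 1, filled triangles and squares experimental batch 2. All 3 pairs of each member lie on the same side of 0, with EIF1 between 1.72 and 2.07 and EIF1B between 1.88 and 2.21.

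EIF2S3 had 13544, 16127 and 14538 normalized counts in CTRL medium and 24215, 24708 and 23630 after Gln depletion (log2 fold change 0.71 ± 0.17, adjusted p = 0.0267). EIF4G3 had 4250, 4395 and 3723 in CTRL medium and 6652, 7806 and 6739 after Gln depletion (log2 fold change 0.78 ± 0.18, adjusted p = 0.025). In both genes the groups did not overlap. The unpaired call of either gene was lost without replicate 2 or 3 of CTRL medium or replicate 2 or 3 of Gln-depleted, and that of EIF2S3 also without CTRL medium replicate 1 (adjusted p of up to 0.102 for EIF2S3 and 0.105 for EIF4G3), while both were called in the paired test (0.00257 and 0.00212). More members of eIF2 were called in the paired test. EIF2S2 had 2891, 6717 and 7088 normalized counts in CTRL medium and 7438, 10976 and 10491 after Gln depletion, where the lowest CTRL medium value and the lowest Gln-depleted value both came from replicate 1. Its log2 ratios within pairs were 1.36, 0.71 and 0.57, and the log2 fold change was 0.88 ± 0.17 with adjusted p = 0.00631 in the paired test (adjusted p = 0.148 unpaired). EIF2A, an alternative initiator tRNA binder, and EIF2S3B were likewise called in the paired test alone (log2 fold changes 0.60 and 0.68, adjusted p = 0.00585 and 0.0167). EIF2S1 had 5304, 7885 and 7925 normalized counts in CTRL medium and 6098, 6959 and 5771 after Gln depletion, with overlapping groups (log2 fold change -0.17 ± 0.21, adjusted p = 0.623). Of the 12 tested members of the scanning and ternary complex group, 3 were higher in the unpaired test (25%, beside 8.84% of all rows). In the paired test 6 were higher (50%, beside 22.7% of all rows). EIF5B was lower in the paired test (log2 fold change -0.93 ± 0.16 with adjusted p = 0.0047).

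4E-BP1 RNA moved in the direction opposite to that seen with MAPKi. EIF4EBP1 had 6223, 5838 and 7299 normalized counts in CTRL medium and 8937, 9007 and 13929 after Gln depletion. All Gln-depleted libraries exceeded all CTRL medium libraries, and the pairs gave log2 ratios of 0.52, 0.63 and 0.93. The unpaired test did not call it (log2 fold change 0.72 ± 0.23, adjusted p = 0.07), whereas the paired test did (log2 fold change 0.69 ± 0.12 with adjusted p = 0.00468). EIF4EBP2 had 4228, 4820 and 5957 in CTRL medium and 4852, 5221 and 6422 after Gln depletion (log2 fold change 0.14 ± 0.21, adjusted p = 0.681) with overlapping groups. EIF4E had 1836, 3628 and 3677 in CTRL medium and 2269, 3449 and 2741 after Gln depletion, lower in replicate 1 of both groups than in the others (log2 fold change -0.11 ± 0.30, adjusted p = 0.823). The 4E-BP to EIF4E ratio, per kilobase, was 10.7, 5.15 and 6.35 in the CTRL medium libraries and 12.3, 8.16 and 15.7 in the Gln-depleted libraries, which overlapped (difference of 0.72 in log2, exact permutation test, p = 0.2, adjusted p = 0.2). EIF4G1 had 35755, 17917 and 17258 normalized counts in CTRL medium and 27415, 13460 and 10437 after Gln depletion, so that replicate 1 of either group exceeded all libraries of the other replicates. Within pairs its log2 ratios were -0.38, -0.41 and -0.73, and it was called only with the block (log2 fold change -0.51 ± 0.12 with adjusted p = 0.0128, unpaired adjusted p = 0.467). EIF4H was also lower and EIF4B higher in the paired test (log2 fold changes -0.32 and 0.53, adjusted p = 0.0478 and 0.00625). EIF4A2 had 6851, 6080 and 4298 in CTRL medium and 7347, 7673 and 5441 after Gln depletion in normalized counts and was called in neither test (paired adjusted p = 0.102).

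Of the 5 eIF2B subunits 0 passed the unpaired test by edgeR (0 at an unadjusted p under 0.05 and 0 by DESeq2). Over all rows 8.84% were higher and 6.96% were lower in that test. EIF2B5 had 3275, 2369 and 2352 normalized counts in CTRL medium and 2616, 1982 and 1560 after Gln depletion (log2 fold change -0.38 ± 0.25, adjusted p = 0.326), and it was lower in each of the 3 pairs (-0.32, -0.26 and -0.59) with a log2 fold change of -0.39 ± 0.12 with adjusted p = 0.0401 in the paired test. EIF2B5-DT had 60.8, 62.1 and 71.4 in CTRL medium and 20, 28.3 and 51.3 after Gln depletion in normalized counts and was lower in the paired test (log2 fold change -1.05 ± 0.34 with adjusted p = 0.0416). EIF2B3 (1700, 1383 and 1224 in CTRL medium and 1432, 1203 and 1077 after Gln depletion) gave log2 ratios within pairs of -0.25, -0.20 and -0.18 but was not called (paired adjusted p = 0.179). Of the 13 tested eIF3 rows 0 passed the unpaired test by edgeR (3 at an unadjusted p under 0.05 and 1 by DESeq2). In the paired test EIF3L, EIF3F and EIF3C were higher (log2 fold changes 0.53, 0.39 and 0.53) and EIF3B was lower (-0.55 ± 0.11 with adjusted p = 0.00766). These are 23.1% and 7.69% of the eIF3 rows, beside 22.7% higher and 19.8% lower over all rows. EIF3B had 17875, 15004 and 16847 normalized counts in CTRL medium and 13173, 10607 and 10387 after Gln depletion, without overlap, and EIF3A had 6405, 8162 and 7150 in CTRL medium and 8384, 11455 and 7660 after Gln depletion (log2 fold change 0.34 ± 0.21, adjusted p = 0.302). The EIF3CL row, near-identical to EIF3C, ranged from 111 to 1464 normalized counts within CTRL medium and gave no call. Its log2 ratios within pairs were -2.01, -1.25 and 0.38. Reads can be split between the 2 rows, so the rise of the EIF3C row is uncertain. In all, 27 members were called in neither test, with unpaired log2 fold changes from -0.88 to 0.39 apart from EIF3CL (-1.54).

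EIF5A2 had 533, 1449 and 1346 normalized counts in CTRL medium and 1006, 1904 and 1563 after Gln depletion, higher in each pair (0.92, 0.39 and 0.22) and called only in the paired test (log2 fold change 0.50 ± 0.16 with adjusted p = 0.041). The EIF5A row had 34.3, 57.3 and 22.3 in CTRL medium and 24.2, 18.6 and 19.1 after Gln depletion in normalized counts (log2 fold change -0.88 ± 0.44, adjusted p = 0.199), and EIF5AL1 had 1776, 1208 and 1306 in CTRL medium and 1147, 1031 and 1109 after Gln depletion (log2 fold change -0.38 ± 0.21, adjusted p = 0.234). The ratio of EIF5A2 to the EIF5A row, per kilobase, was 7.70 ± 5.38 in CTRL medium and 17.2 ± 7.07 after Gln depletion (SD, n = 3), a difference of 1.30 in log2 (exact permutation test, p = 0.2, adjusted p = 0.2). EIF6 had 6438, 4287 and 4692 normalized counts in CTRL medium and 9376, 5724 and 5248 after Gln depletion, with overlapping groups and a log2 fold change of 0.37 ± 0.12 with adjusted p = 0.0414 in the paired test.

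Both responses were then compared in 1 model of all 12 libraries, and the experiments share no controls. The MAPKi experiment belongs to sequencing batch 2 and the Gln depletion experiment to sequencing batch 1, so batch and experiment cannot be told apart here, while each response is a contrast within 1 batch. The response to MAPKi was below that to Gln depletion for 17 of 48 members and above it for 1, beside 18.9% and 17.2% of all 16072 rows tested. With the replicate block the counts were 29 and 2, beside 28.1% and 25.1% of all rows. EIF4EBP1 differed most, with a log2 difference (MAPKi response minus Gln depletion response) of -2.50 ± 0.24, adjusted p = 1.72e-05. EIF1B and EIF1 followed with -2.05 ± 0.16, adjusted p = 4.03e-06, and -1.73 ± 0.15, adjusted p = 7.21e-06. The next in order were EIF2S2 (-1.57), EIF2B2 (-1.19), EIF2B3 (-1.10) and EIF6 (-1.04). EIF4EBP2 was the 1 member whose response to MAPKi was the higher, by 0.92 ± 0.20, adjusted p = 0.00345. For EIF4E the log2 difference of -0.87 ± 0.32, adjusted p = 0.0515, did not pass the test. Going by the calls of each experiment, with the paired test for Gln depletion, 7 members were lower with MAPKi and higher after Gln depletion (EIF2A, EIF2S2, EIF2S3, EIF3F, EIF4EBP1, EIF4G3 and EIF6), 6 were lower in both (EIF2B5, EIF2B5-DT, EIF3B, EIF4G1, EIF4H and EIF5B) and 2 were higher in both (EIF4E3 and EIF5A2). With 34 of 48 members lower with MAPKi, and 15 higher and 6 lower in the paired test, some overlap arises without any link between the responses. These overlaps were not counted over all rows, so they only list the members.

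**Figure D4:**
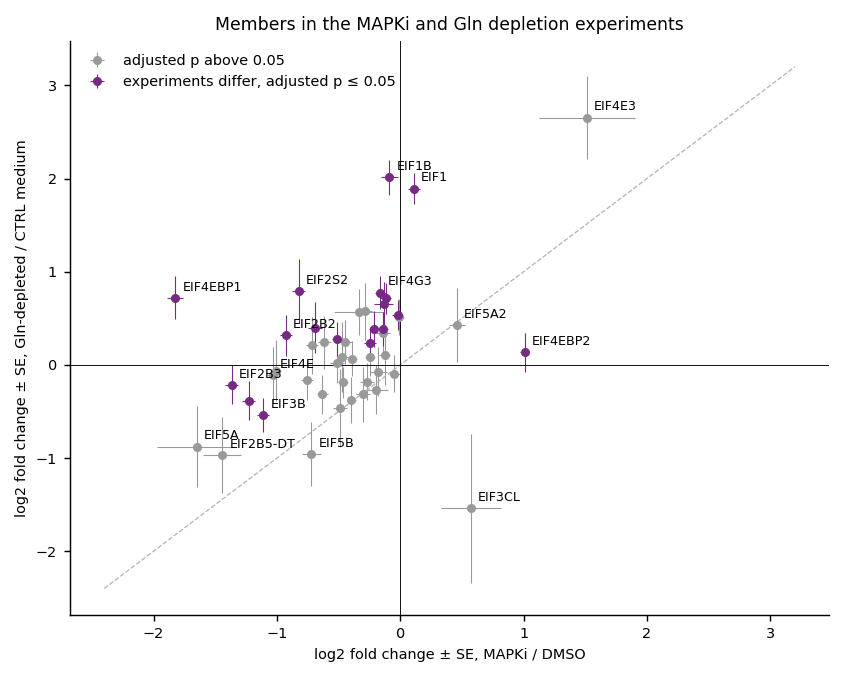
Log2 fold change ± SE with MAPKi (horizontal axis) against that with Gln depletion (vertical axis, unpaired fit) for the 48 tested members, 3 libraries per group; dark points are the 18 members that passed the test of the difference, and the dashed line marks equal responses. Most dark points lie above the line, EIF4EBP1 at -1.82 and 0.72, and EIF4EBP2 lies below it at 1.01 and 0.14.

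Genes that act with the initiation factors were examined in 3 lists. Of 14 tested partners of initiation, 8 were lower (57.1%) and 2 higher (14.3%) with MAPKi (median log2 fold change -0.24). Over all rows tested, 35.9% were lower and 35.8% were higher. ABCE1, which splits ribosomes for reuse, had 4856, 5032 and 4668 normalized counts with DMSO and 1414, 1481 and 1524 with MAPKi (log2 fold change -1.72 ± 0.05, adjusted p = 1.79e-08), and PAIP2B, an inhibitor of the poly(A)-binding protein, rose by 2.72-fold (log2 fold change 1.44 ± 0.09). CYFIP1, which binds eIF4E, had a larger log2 fold change (-3.65), but its 3 DMSO libraries (13.9, 194 and 249 normalized counts) overlapped those of MAPKi (14.1, 13.3 and 8.89), and DDX3X, a helicase, was slightly higher (0.20). After Gln depletion 1 was higher in the unpaired test (7.14%, beside 8.84% of all rows). This was PDCD4, an inhibitor of eIF4A, with 624, 887 and 809 normalized counts in CTRL medium and 1474, 1840 and 1572 after Gln depletion (log2 fold change 1.08 ± 0.21, adjusted p = 0.0152). In the paired test 6 were higher (42.9%, beside 22.7% of all rows).

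Of 17 tested kinases and regulators, 6 were lower (35.3%, beside 35.9% of all rows) and 8 higher (47.1%, beside 35.8%) with MAPKi (median -0.01). RPS6KA3, an ERK-activated kinase, and GCN1, an activator of the eIF2 kinase GCN2, fell most (log2 fold changes -1.11 ± 0.07 and -0.62 ± 0.04), and MTOR and PPP1R15B, the latter a subunit that brings a phosphatase to eIF2, rose most (0.55 ± 0.04 and 0.42 ± 0.06). After Gln depletion 2 were higher in the unpaired test (11.8%, beside 8.84% of all rows) and 7 in the paired test (41.2%, beside 22.7%). PPP1R15A, the inducible partner of the eIF2 phosphatase, had 2201, 2037 and 1879 normalized counts in CTRL medium and 14160, 22495 and 14970 after Gln depletion (log2 fold change 3.08 ± 0.24, adjusted p = 0.00116). MKNK2, a kinase that phosphorylates eIF4E, rose by 2.25-fold (log2 fold change 1.17 ± 0.23). Of 10 genes listed under elongation, 6 were lower (60%, beside 35.9% of all rows) and 1 higher (10%, beside 35.8%) with MAPKi (median -0.48). Among those lower were EEF1E1 at -1.90 ± 0.32 and EEF1B2 at -2.33 ± 0.73. Both rest on few reads, with 96.4 to 192 (EEF1E1) and 42.7 to 337 (EEF1B2) normalized counts with DMSO. EEF1A1 was slightly higher (0.15). After Gln depletion the elongation factors EEF1A1 and EEF2 were higher in the unpaired test (20% of the list, beside 8.84% of all rows). Their values were log2 fold change 0.98 ± 0.21, adjusted p = 0.0198, and log2 fold change 0.85 ± 0.21, adjusted p = 0.033.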

How the data were processed

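RNA-seq reads of 12 A375 libraries (3 per group) were analysed. Per the labels and the methods, the authors trimmed reads with fastp 0.20.1, aligned them to GRCh38.p13 with HISAT2 2.2.1 and counted those on exons with HTSeq 0.13.5, and the deposited values are raw counts of 44659 rows; all columns were used. Whether strand was used is not given in the sources used here. Rows whose exons overlap other genes or that have copies can be undercounted.

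Each experiment was fitted on all rows with a mean of at least 10 TMM-normalized counts with edgeR 4.0.16 (quasi-likelihood test, and a test against a 1.5-fold change) in R 4.3.3, with treatment as the only term, and an adjusted p of at most 0.05 was the threshold. The difference was a contrast over 4 groups. DESeq2 1.42.0, the tool of the study, was an alternative. The table holds 31056296 to 40071368 reads per library, so that for rows with many reads the spread between replicates limits precision more than counting does. For rows with few reads, such as EIF5A (6 to 60 reads) and EIF4E3 (9 to 124 reads), counting limits it as well. Same-numbered replicates deviated together in the Gln depletion experiment (r = 0.502, 0.358 and 0.392), where they also share an experimental batch, and not in the MAPKi experiment (0.022, 0.048 and 0.012), while in both experiments their titles share a code whose meaning the labels do not give. Lengths and positions were taken from GENCODE 44 (MANE Select or longest transcript) and promoters from RefSeq. The edgeR procedure was tested on simulated data with known changes. Ratios were compared with scipy 1.17.1 in Python 3.11.15.

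The members, lists and tests were chosen with earlier results of these data known. Values per library are given for a fixed core (EIF4E, EIF4G1, EIF4A2, the 4E-BPs, EIF2S1, EIF2B5, EIF3A, EIF5A, EIF5A2 and EIF6), for up to 6 largest rises and falls per experiment and 3 per direction of the difference. EIF2S2, which is outside this rule, was chosen after its values were seen. Alternatives were other scalings (DESeq2's size factors, library totals), DESeq2, count limits (at least 2 reads, a mean of at least 100), protein-coding rows only, all 12 libraries, the replicate block, a GC-content correction, both together, an adjusted p of 0.01, a batch term and each library left out. The use of experimental batch 2 alone was chosen after seeing the data.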

Additional observations from a re-analysis of the deposited data

How the results depend on the processing

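With MAPKi, 34 members were lower by the unpaired test; the count was 20 with the spread taken from all 12 libraries (8 beyond 1.5-fold, where the reported value was 14), and otherwise within 1.5 times of it. The count of 3 higher members was 5 with the replicate block and 5 with the block and GC-content correction, and the 2 beyond 1.5-fold were 1 by DESeq2, with a mean count of at least 100 and at an adjusted p of 0.01. The median of -0.36 was -0.32 with at least 2 reads, -0.42 with GC-content correction and -0.41 with the block and GC-content correction. Leaving out 1 library gave 31 to 34 lower, 3 to 4 higher, 12 to 13 lower and 1 to 2 higher beyond 1.5-fold (1 without DMSO replicate 1 or 3 or MAPKi replicate 1 or 2), and a median of -0.40 to -0.32.

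After Gln depletion, 0 lower members became 1 with library totals only, 2 by DESeq2, 2 with GC-content correction, 4 with all 12 libraries, 3 with the experimental batch term, 2 with experimental batch 2 only, 6 with the replicate block and 9 with the replicate block and GC-content correction, and 5 higher members became 12, 14, 10, 15 and 14 under the last 5 of these settings and 3 at an adjusted p of 0.01. Beyond 1.5-fold, 1 was lower with GC-content correction and 1 with the block and GC-content correction. The median of 0.12 was -0.0498 with library totals only, which move all rows, and 0.02 with GC-content correction, with and without the block (0.0199 and 0.0218). Leaving out 1 library gave 0 to 1 lower, 3 to 5 higher (3 without replicate 2 or 3 of either group), 0 lower and 2 to 3 higher beyond 1.5-fold, and a median of 0.0607 (without CTRL medium replicate 1) to 0.2184 (without CTRL medium replicate 3). The sign of 2 uncalled genes turned: the log2 fold change of EIF4E (-0.11) was -0.3733 to 0.04545 with 1 library left out, above 0 without CTRL medium replicate 2 or 3 or Gln-depleted replicate 1, and that of EIF4EBP2 (0.14) was -0.0347 with library totals only and -0.0133 to 0.2813 with 1 library left out.

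The difference between experiments, 17 lower and 1 higher, became 27 and 2 by DESeq2, 29 and 2 with the replicate block, 29 lower with experimental batch 2 only, 10 lower at an adjusted p of 0.01, and 3 higher with GC-content correction or 4 with the block as well. Leaving out 1 library gave 12 to 24 lower and 1 to 2 higher. The 4E-BP to EIF4E difference with MAPKi (-0.22) was 1.09 from raw counts without length, by construction, and -0.25 to -0.18 without 1 library. Without 1 library it was 0.50 to 1.02 after Gln depletion, and that of EIF5A2 to EIF5A was 1.94 to 2.40 with MAPKi and 0.85 to 1.83 after Gln depletion. The planned ratio of EIF4A2 to EIF4A1 was not run, since no read was counted on EIF4A1. The cause of these changes was not tested except where stated. In the MAPKi experiment same-numbered libraries share a code in their titles, whose meaning the labels do not give, and did not deviate together. Over the alternatives of the 16 genes per experiment that the naming rule chose (EIF2S3, EIF5, EIF3F and EIF2B4, whose MAPKi calls were lost as already given, are outside it there), the MAPKi calls were lost in 4 cases, all in the fit of all 12 libraries, and gained in 5 (EIF3A), and those of Gln depletion were lost in 13 cases (EIF2S3 and EIF4G3) and gained in 18, 11 of them with the replicate block, with or without GC-content correction.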

Other observations

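The copy row of EIF3K, which is not a member, held 1714, 31 and 46 reads in DMSO replicates 1 to 3 and 4254, 322 and 61 reads in CTRL medium replicates 1 to 3, so that replicate 1 was the highest library in both control groups. In MAPKi replicates 1 to 3 it held 29, 58 and 61 reads, and in Gln-depleted replicates 1 to 3 84, 229 and 97 reads. The copy row of EIF5A held 2900, 1118 and 971 reads in CTRL medium and 4151, 696 and 549 reads after Gln depletion.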
